A study of Mus musculus with 8 samples.

Results

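The ephrins, their Eph receptors, the Slit ligands, the Robo receptors and the Slit-Robo GTPase activating proteins (srGAPs) were described in angiotensin II-treated mouse aortas. The genes were chosen by symbol alone (Efna and Efnb, Epha and Ephb, Slit1 to Slit3, Robo1 to Robo3 and Srgap1 to Srgap3), with no measured value used. The gene table held 31 of them among 23420 genes, and 25 had a mean of at least 10 normalized reads over the 8 libraries and were tested, among 14931 genes in all. RNA was sequenced from aortas, 1 aorta per library. They came from 4 Ntn1-/- to ApoE-/- chimeras (Ntn1-/- replicates A to D) and 4 WT to ApoE-/- chimeras (WT replicates A to D). The recipients of both groups were ApoE-/- mice, irradiated when 6 weeks old and given fetal liver cells of Ntn1-/- ApoE-/- donors or, for WT, of Ntn1+/+ ApoE-/- donors. After 6 weeks of recovery, all of them received angiotensin II at 1 µg/kg/min for 28 days. The paper reports that fewer Ntn1-/- than WT chimeras developed an abdominal aortic aneurysm. It calls the sequenced groups protected from and prone to aneurysm, and does not state which sequenced aortas held one. Only the blood-forming lineage lacked Ntn1, the gene of the guidance cue netrin-1, and the vessel wall of the recipients kept it.

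Ephrins and Eph receptors both sit in cell membranes, so that signals pass between touching cells. Ephrin-A ligands are tied to the membrane by a lipid anchor and mainly bind EphA receptors, whereas ephrin-B ligands span the membrane, mainly bind EphB receptors and can signal back into their own cell. Ephrin-B2 and EphB4 are best known in vessels for marking arterial and venous endothelium. Slits are secreted proteins that bind Robo receptors, often repelling axons or migrating cells, and the srGAPs act inside the cell on small GTPases and on membrane shape. Netrin-1 belongs to the same broad class of guidance cues but uses other receptors.

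The libraries held 22485117 to 28202931 reads in genes in the Ntn1-/- group and 19879329 to 25083874 in the WT group. Ntn1 itself was at 7923 ± 2419 normalized reads in Ntn1-/- chimeras and 7564 ± 1698 in WT chimeras (SD, n = 4 each) (log2 fold change 0.04, standard error 0.24, limma adjusted p = 0.959), which cannot check the deletion because recipient cells carry the gene. Smooth muscle markers, the defining genes of the aortic wall, were abundant throughout, summing to 320950 to 836474 normalized reads in the Ntn1-/- group and 476240 to 795169 in the WT group over 10 genes. Ntn1-/- replicates B and C stood apart in markers of other tissues. The 10 neuron markers summed to 14218 and 11279 normalized reads there, against 5095 and 6242 in the other two Ntn1-/- libraries and 4674 to 5792 in WT libraries. The 10 skeletal muscle markers summed to 9025 and 9005, against 356 and 430.3 in the other two Ntn1-/- libraries and 409.7 to 3232 in WT libraries. In whole tissue, fewer cells of a type and less RNA per cell cannot be told apart.

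Transcripts of every role were present in the aortas of both groups, and the most abundant per length was a Slit. Over all 8 libraries and per kb of exon, Slit3 had 641 normalized reads, followed by Efna5 with 407, Ephb4 with 325, Efnb2 with 228, Efna1 with 220.0, Efnb1 with 186 and Epha1 with 123. The order below Slit3 was not sharp everywhere: Efnb2 and Efna1 lay within each other's spread, and so did Epha1 and Srgap2 (112 normalized reads per kb). Of Robo1 to Robo3, Robo1 alone passed the filter, with 7.78 normalized reads per kb, far below its ligand Slit3. Robo4 lies outside the naming rule and averaged 679 normalized reads over the 8 libraries, against 74.3 for Robo1. Epha7 (7.03), Ephb1 (7.04) and Epha5 (1.17) closed the order of the tested genes.

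**Figure D1:**
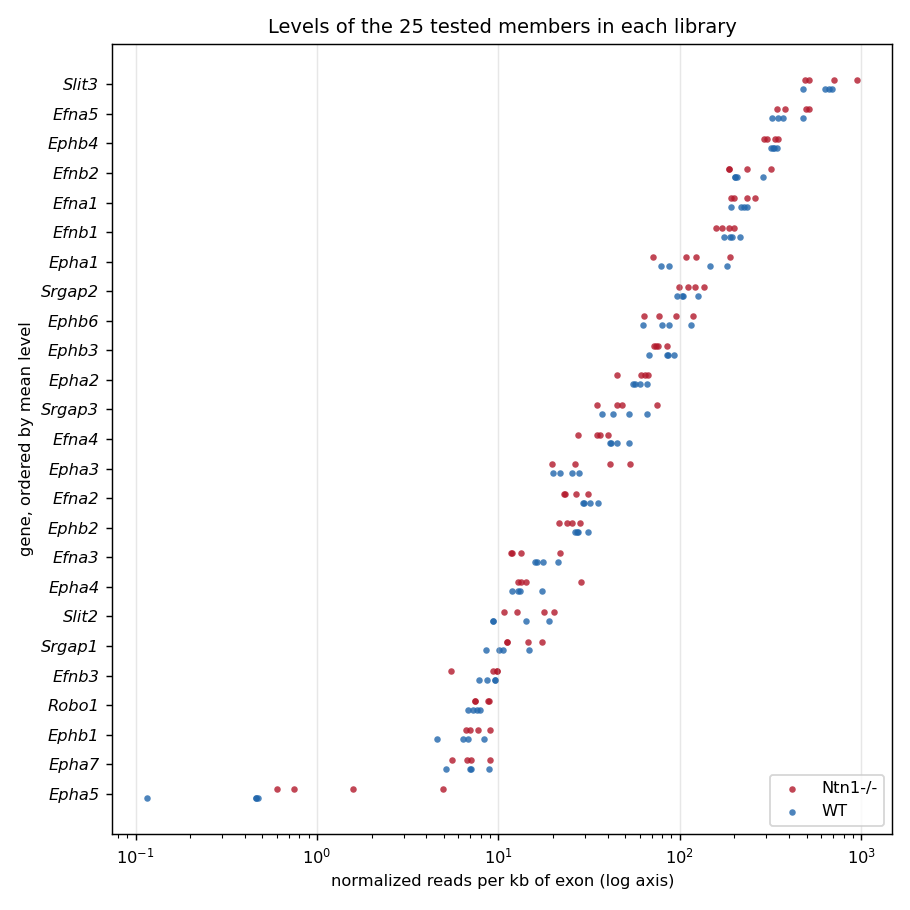
Normalized reads per kb of exon (log axis) of the 25 tested genes in each library, ordered by their mean, with Ntn1-/- libraries as red points and WT libraries as blue points just beneath them. Slit3 leads with a mean of 641 and Epha5 is last with 1.17, and the points of the groups lie in the same range for nearly every gene.

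Summed per kb over a role, the groups overlapped in every role. The ephrin-A ligands reached 732 ± 52.5 normalized reads per kb in Ntn1-/- chimeras and 692 ± 49.7 in WT chimeras (SD, n = 4 each). The 3 ephrin-B ligands reached 419.5 ± 53.6 in Ntn1-/- chimeras and 426 ± 42.5 in WT chimeras. The sums of the EphA receptors were 245 ± 64.0 and those of the EphB receptors 517 ± 28.7 in Ntn1-/- chimeras, against 229 ± 53.4 and 534 ± 17.1 in WT chimeras. These differences were all smaller than the larger SD of the 2 groups. Slit ligands summed to 683 ± 213 in Ntn1-/- chimeras and 631 ± 97.1 in WT chimeras, and the srGAPs to 182 ± 7.62 in Ntn1-/- chimeras and 168 ± 9.92 in WT chimeras. The srGAP sums still overlapped between the groups, since the lowest Ntn1-/- library had 171 and the highest WT library 178. Robo receptors summed to 9.10 ± 0.903 in Ntn1-/- chimeras and 8.06 ± 0.377 in WT chimeras. They overlapped as well, with 7.87 in the lowest Ntn1-/- library and 8.48 in the highest WT library. For the srGAPs and the Robo receptors, the means differed by more than the larger SD.

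None of the 25 tested genes differed between Ntn1-/- and WT chimeras at an adjusted p under 0.05. In limma, with Benjamini-Hochberg adjustment over all genes, the smallest adjusted p among them was 0.274, and 0 genes passed in the whole table (0%). At an unadjusted p under 0.05 there were 2 of 25 genes (8.0%), Efna4 and Epha5, against 15.6% of all genes tested. The same 2 genes were those whose groups did not overlap (8.0%, 1 higher and 1 lower in Ntn1-/- chimeras), against 10.5% of all genes tested. Of these, Epha5 passed the filter only through the Ntn1-/- group (mean 19.7, against 3.78 in WT chimeras). edgeR on the recovered reads called 0 of the 25 and had 1 at an unadjusted p under 0.05, and DESeq2 also called 0 and had 1, while DESeq2 called 3% of all its genes. None of these shares exceeded that of the whole table.

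The estimates were small for most genes. Ntn1-/- chimeras had the higher estimate for 15 genes and the lower one for 10, with a median log2 fold change of 0.02 against -0.0147 over all genes tested. When length and GC content of the genes were corrected for in each library, the split was 10 higher and 15 lower, and 7 genes changed direction: Efnb2, Epha1, Epha7, Slit2, Robo1, Srgap2 and Srgap3. The 95% confidence interval of the log2 fold change stayed within 1 in either direction for 23 genes and within 0.5 for 10 genes. The exceptions were Epha3 and Epha5, whose intervals reached beyond 1. For these 25 genes the median coefficient of variation within a group was 20.0% in Ntn1-/- chimeras and 14.998% in WT chimeras, compared with 14.9% and 12.7% over all genes.

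**Figure D2:**
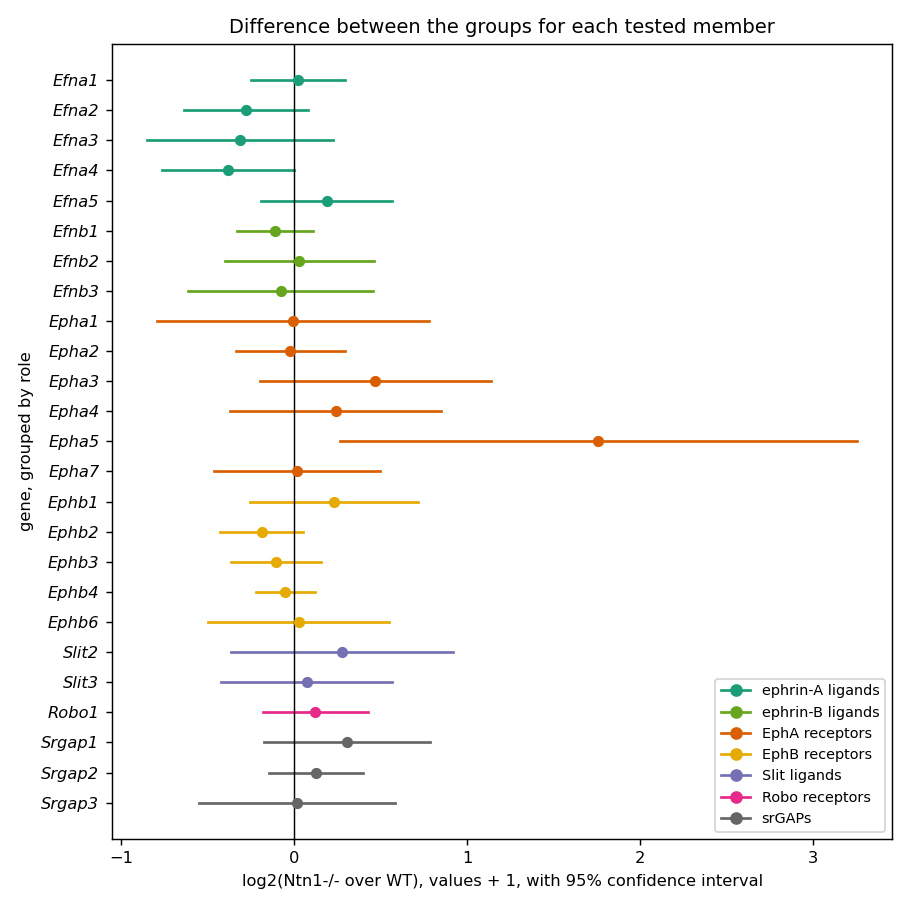
Log2 fold change of Ntn1-/- over WT (values + 1) with its 95% confidence interval for each tested gene, grouped and coloured by role. Efna4 and Epha5 have intervals that leave out 0, at -0.38 and 1.76, before adjustment for the number of genes tested. Epha5 passed the filter only through the Ntn1-/- group.

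Among the ephrin-A ligands, 2 estimates were higher and 3 lower in Ntn1-/- chimeras, with a median log2 fold change of -0.28. Efna4 encodes ephrin-A4 and lies on chromosome 3 (mm9, 89137312 to 89141950, minus strand), in one stretch with Efna3 (89117821 to 89126887) and Efna1 (89075655 to 89085064). Efna4 had 58.2, 43.7, 55.8 and 64.2 normalized reads in Ntn1-/- replicates A to D, against 65.6, 72.3, 83.9 and 67.2 in WT replicates A to D. Every Ntn1-/- library lay below every WT library, although the highest Ntn1-/- library (64.2) was next to the lowest WT library (65.6). The means were 55.5 ± 8.59 in Ntn1-/- chimeras and 72.3 ± 8.29 in WT chimeras (SD, n = 4 each), a log2 fold change of -0.38 with a standard error of 0.17. Its limma adjusted p was 0.318 (unadjusted 0.0489), and the exact 2-sided permutation p of 0.0286 is the smallest that 4 against 4 libraries allow. The unadjusted p was 0.0554 in DESeq2 and 0.0583 in edgeR, and 0.319 with the length and GC correction, under which the log2 fold change was -0.1795.

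The 2 neighbours of Efna4 on chromosome 3 did not share this pattern in full. Efna3, the ephrin-A3 gene, had 53.2, 32.3, 28.9 and 28.6 normalized reads in Ntn1-/- replicates A to D, against 51.8, 39.9, 43.1 and 38.9 in WT replicates A to D. Ntn1-/- replicate A was the highest of all 8 libraries and the other three Ntn1-/- libraries were the lowest, so the groups overlapped (log2 fold change -0.31, 95% confidence interval -0.85 to 0.22). Efna1, whose product is an ephrin that inflammatory cytokines induce in endothelium, had 352, 365, 432 and 476 normalized reads in Ntn1-/- replicates A to D, against 351, 415, 399.9 and 428 in WT replicates A to D. The groups covered the same range, and the log2 fold change was 0.02 with an interval of -0.25 to 0.29. Efna2, on chromosome 10, averaged 55.6 ± 8.29 normalized reads in Ntn1-/- chimeras and 67.4 ± 6.21 in WT chimeras, and its groups overlapped (limma adjusted p = 0.419).

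Efna5 was the most abundant ephrin. It had 2004, 2079, 1539 and 1378 normalized reads in Ntn1-/- replicates A to D, against 1924, 1503, 1401 and 1294 in WT replicates A to D. The highest libraries were Ntn1-/- A and B and WT A, and the groups overlapped widely. The means were 1749.8 ± 344.5 in Ntn1-/- chimeras and 1531 ± 276 in WT chimeras (log2 fold change 0.19, standard error 0.17, limma adjusted p = 0.61).

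The 3 ephrin-B ligands gave 1 higher and 2 lower estimates. Efnb2, the arterial ephrin, had 1120.2, 1523, 901 and 895 normalized reads in Ntn1-/- replicates A to D, against 1372, 967, 994 and 962 in WT replicates A to D. One library of each group was high, Ntn1-/- B and WT A, and the others lay between 895 and 1120.2. The means were 1109.9 ± 295 in Ntn1-/- chimeras and 1074 ± 199.6 in WT chimeras (log2 fold change 0.03, standard error 0.19, limma adjusted p = 0.961). Efnb1, an X-linked ephrin, varied less, between 547 and 686 normalized reads in Ntn1-/- chimeras and between 608 and 738 in WT chimeras, with a log2 fold change of -0.11 (95% confidence interval -0.33 to 0.11). Efnb3 was low, at 27.5 ± 6.72 normalized reads in Ntn1-/- chimeras and 28.4 ± 2.62 in WT chimeras.

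Of 9 EphA receptors, 6 were tested, and 4 of these had a higher and 2 a lower estimate in Ntn1-/- chimeras. Epha5, a receptor best known from the nervous system, lies on chromosome 5 (mm9, 84486816 to 84846407, minus strand). The reads recovered for Epha5 were 9, 52, 16 and 7 in Ntn1-/- replicates A to D, against 4, 5, 1 and 4 in WT replicates A to D. As normalized reads these were 7.48, 49.4, 15.9 and 6.07 in Ntn1-/- chimeras, against 4.61, 4.63, 1.17 and 4.71 in WT chimeras. Every Ntn1-/- library was above every WT library, but replicate B alone held most of the group's reads. The means were 19.7 ± 20.3 in Ntn1-/- chimeras and 3.78 ± 1.74 in WT chimeras (SD, n = 4 each), and the log2 fold change was 1.76 with a standard error of 0.66 and a 95% confidence interval of 0.26 to 3.25. Its adjusted p was 0.274 in limma, 0.236 in edgeR and 0.0838 in DESeq2, and the exact 2-sided permutation p was again 0.0286. At 11.8 normalized reads over all libraries it passed the filter narrowly, through the Ntn1-/- group.

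The 2 libraries with the most Epha5 reads, Ntn1-/- B and C, were also those with the highest neuron and skeletal muscle marker levels. The mean centred log2 level of the 10 neuron markers was -0.35, 1.73, 1.29 and -0.015 in Ntn1-/- replicates A to D, against -0.44, -0.83, -0.83 and -0.54 in WT replicates A to D. All 10 markers had a higher estimate in Ntn1-/- chimeras and 8 had an unadjusted limma p under 0.05, against 15.6% of all genes tested. No marker of the list was at 0. Other lists differed too: 6 of 9 liver markers, with 0 of the 9 higher, and 4 of 10 Schwann cell markers were under that limit. Schwann cell (0.82 and 0.39) and thymocyte (0.94 and 1.23) marker levels were also highest in Ntn1-/- B and C. Without these libraries the log2 fold change of Epha5 was 0.80 with an unadjusted limma p of 0.205, a fit of 2 against 4 libraries that lacks the highest Epha5 values by construction. Its log2 fold change was 1.18 without Ntn1-/- B alone, 1.70 without Ntn1-/- C alone and 1.41 without WT C alone, and the unadjusted limma p was above 0.05 in each of these fits. The part of RNA from nerve, skeletal muscle or other tissues in the Epha5 difference was not tested.

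Epha10, which encodes a receptor with an inactive kinase domain, was too low to be tested and had 4, 17, 17 and 5 reads in Ntn1-/- replicates A to D, against 0, 7, 3 and 6 in WT replicates A to D. Its highest libraries were also Ntn1-/- B and C, and the groups overlapped (exact permutation p = 0.257). Epha4, a receptor of axon guidance, had 181 normalized reads in Ntn1-/- replicate B, while the other three Ntn1-/- libraries had 81.4 to 89.7 and the WT libraries 75.1 to 111. The other three Ntn1-/- libraries lay within the WT range. Epha3 had 233, 302, 112 and 149 normalized reads in Ntn1-/- replicates A to D, against 144, 123, 113 and 158 in WT replicates A to D. Ntn1-/- A and B were the highest and Ntn1-/- C the lowest of all 8, so that its log2 fold change of 0.47 had an interval of -0.20 to 1.14.

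**Figure D3:**
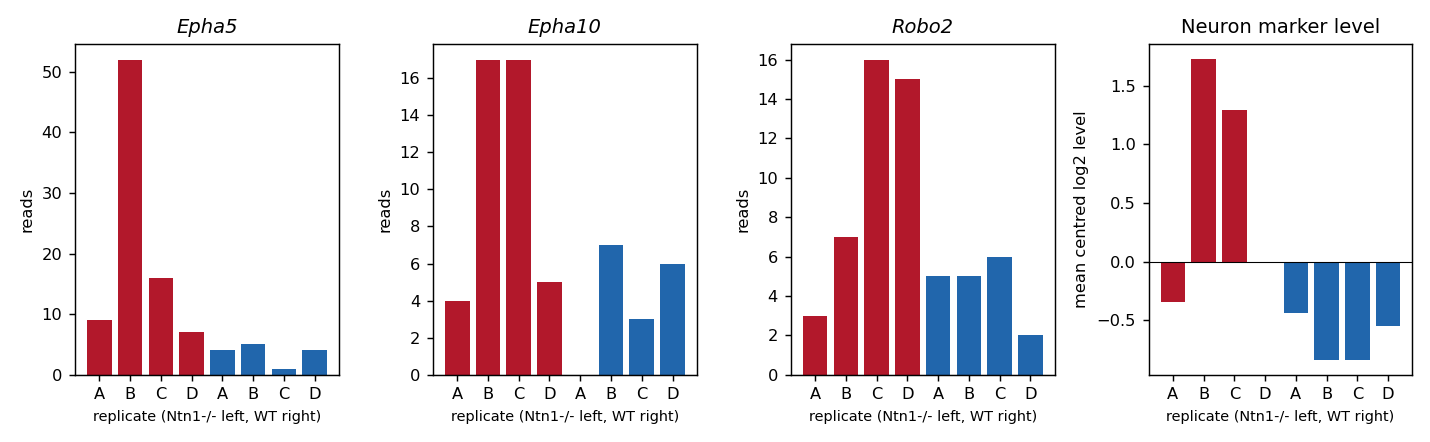
Reads recovered in each library for Epha5, Epha10 and Robo2, and the mean centred log2 level of 10 neuron markers, with the 4 Ntn1-/- libraries in red on the left and the 4 WT libraries in blue on the right. Epha5 peaks at 52 reads in Ntn1-/- B and Epha10 at 17 reads in Ntn1-/- B and C, the 2 libraries with the highest neuron marker level, while Robo2 is highest in Ntn1-/- C and D, with 16 and 15 reads.

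Epha1 was the most abundant EphA receptor and varied widely between libraries of the same group. It had 401, 623, 354 and 234 normalized reads in Ntn1-/- replicates A to D, against 593, 286, 258 and 479.6 in WT replicates A to D. High and low libraries occurred in both groups. The means of 403 ± 163 in Ntn1-/- chimeras and 404 ± 159.9 in WT chimeras were nearly equal, with a log2 fold change of -0.0047, a standard error of 0.35 and a limma adjusted p of 0.997. Epha2, an EphA receptor found in many epithelia and in endothelium, averaged 278 ± 46.4 normalized reads in Ntn1-/- chimeras and 279 ± 22.5 in WT chimeras. Epha7 averaged 69.8 ± 14.0 in Ntn1-/- chimeras and 69.2 ± 15.05 in WT chimeras.

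All 5 EphB receptors were tested, and 2 had a higher and 3 a lower estimate. Ephb4, the venous partner of ephrin-B2, had 1347, 1408, 1554 and 1619 normalized reads in Ntn1-/- replicates A to D, against 1479.6, 1590.5, 1537 and 1518 in WT replicates A to D. The WT libraries lay within the range of the Ntn1-/- libraries. With means of 1482 ± 126 in Ntn1-/- chimeras and 1531 ± 46.2 in WT chimeras, its log2 fold change was -0.05 with a standard error of 0.075, and the 95% confidence interval of -0.22 to 0.12 was the narrowest of the 25 genes. Ephb2 and Ephb3 had log2 fold changes of -0.19 (95% confidence interval -0.43 to 0.05) and -0.10 (-0.36 to 0.15), and both overlapped between the groups. For Ephb2 the log2 fold change was -0.322 with the length and GC correction, where its unadjusted limma p was under 0.05. Ephb6, another receptor with an inactive kinase domain, ranged from 240.2 to 446 normalized reads in Ntn1-/- chimeras and from 237 to 436 in WT chimeras. Ephb1 was the lowest, at 49.0 ± 6.59 in Ntn1-/- chimeras and 42.3 ± 10.1 in WT chimeras.

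Slit3 dominated the Slit ligands. It had 5756, 4318, 2961 and 3129 normalized reads in Ntn1-/- replicates A to D, against 4193, 4017, 3848 and 2901 in WT replicates A to D. Ntn1-/- A stood above all other libraries and the remaining ones overlapped. The means were 4041 ± 1293 in Ntn1-/- chimeras and 3740.0 ± 577 in WT chimeras (log2 fold change 0.07, standard error 0.22, limma adjusted p = 0.901), and without Ntn1-/- A the log2 fold change was -0.1147. Slit2 had 270.1, 163, 192 and 307 normalized reads in Ntn1-/- replicates A to D, against 140.5, 285, 213 and 140.2 in WT replicates A to D, with no separation of the groups. Its log2 fold change was 0.28, with an interval of -0.37 to 0.92, and -0.0019 with the length and GC correction. Slit1, known mainly from the nervous system, had 4 to 14 reads in Ntn1-/- libraries and 3 to 10 in WT libraries and was not tested.

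Robo1 was even between libraries, with 84.8, 71.3, 70.7 and 83.3 normalized reads in Ntn1-/- replicates A to D, against 76.0, 73.2, 65.3 and 69.5 in WT replicates A to D. Its groups overlapped, and the log2 fold change was 0.12 with an interval of -0.18 to 0.42, and -0.0677 with the length and GC correction. Robo2 had 3, 7, 16 and 15 reads in Ntn1-/- replicates A to D, against 5, 5, 6 and 2 in WT replicates A to D. Its 2 highest libraries, Ntn1-/- C and D, were not the same pair as for Epha10. Robo3 had at most 5 reads in any library, Epha8 had at most 2, and Epha6 had 0 reads in all 8 libraries. A count of 0 allows up to 3 reads in a library, a limit that covers counting error only.

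The 3 srGAPs had a higher estimate in Ntn1-/- chimeras, none passed the test, and with the length and GC correction Srgap2 (-0.0293) and Srgap3 (-0.1266) had a lower one. Srgap2 had 1059, 861, 968 and 1188 normalized reads in Ntn1-/- replicates A to D, against 890.0, 1091, 907 and 834 in WT replicates A to D. The ranges overlapped broadly, with means of 1019 ± 138 in Ntn1-/- chimeras and 931 ± 111 in WT chimeras (log2 fold change 0.13, standard error 0.12, limma adjusted p = 0.632). Srgap1 averaged 124 ± 27.4 in Ntn1-/- chimeras and 100.1 ± 24.0 in WT chimeras (log2 fold change 0.31, interval -0.18 to 0.79), and Srgap3 averaged 501 ± 168 in Ntn1-/- chimeras and 488 ± 124 in WT chimeras.

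**Figure D4:**
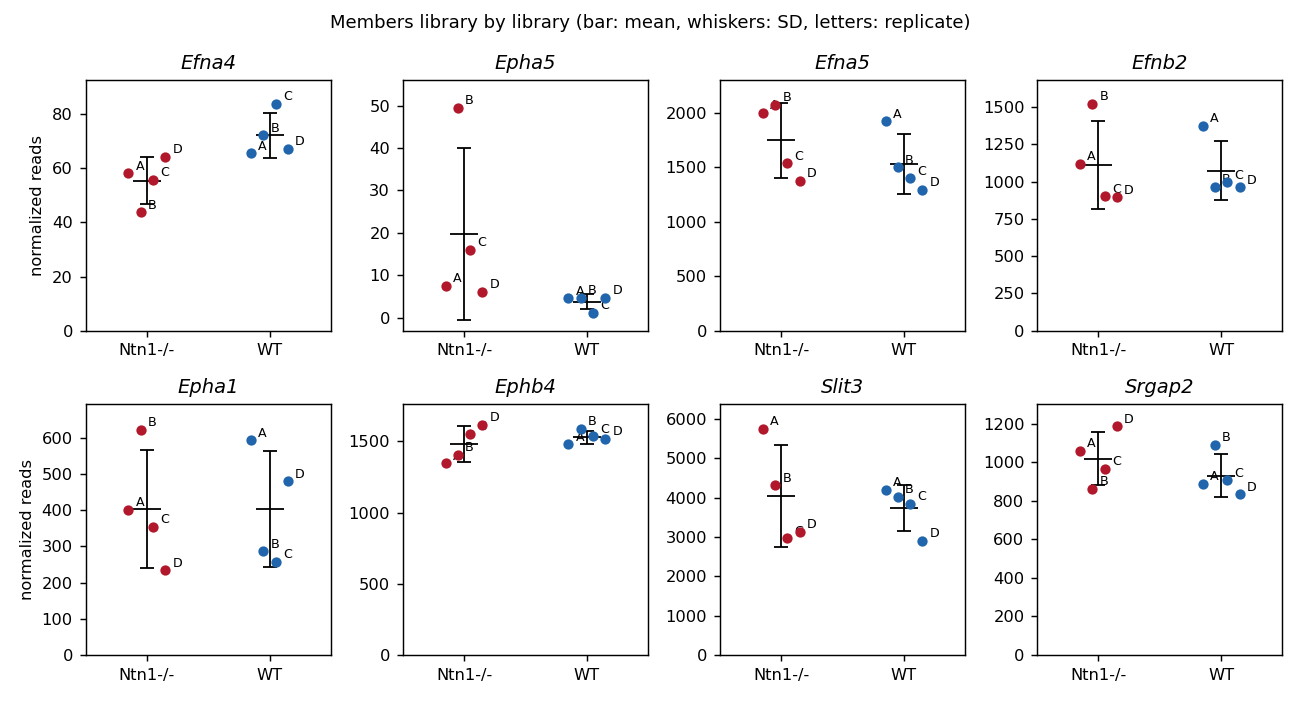
Normalized reads in each library (letters give the replicate) for Efna4, Epha5 and the most abundant gene of each role with at least 2 tested genes, Ntn1-/- in red on the left and WT in blue on the right, with the mean as a bar and the SD as whiskers (n = 4 each). Efna4 and Epha5, which passed the filter only through the Ntn1-/- group in the case of Epha5, are the panels whose groups do not overlap. Epha1 has nearly the same mean in both groups (403 in Ntn1-/- and 404 in WT) over a wide range.

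The levels of Epha1 and Srgap3 tracked the smooth muscle marker level of the library, in both groups. The mean centred log2 level of the 10 smooth muscle markers was 0.22, 0.68, -0.13 and -0.78 in Ntn1-/- replicates A to D, against 0.49, -0.36, -0.29 and 0.17 in WT replicates A to D (exact permutation p = 1.0 between the groups). Across the 8 libraries this level was correlated with Epha1 (Pearson r = 0.963, Spearman rank correlation = 0.952, exact permutation p = 0.00017 and 0.0011) and with Srgap3 (r = 0.962, rank correlation = 0.976, exact permutation p = 9.9e-05 and 0.0004). Over the 50 relations computed (25 genes against smooth muscle and macrophage markers), the Benjamini-Hochberg adjusted p of r was 0.0041 for both genes, and that of the rank correlation was 0.029 for Epha1 and 0.020 for Srgap3. Without Ntn1-/- B and D, the libraries farthest from the median smooth muscle level, r was 0.952 for Epha1 and 0.945 for Srgap3. Efnb2 was the third gene past the threshold by r (r = 0.858, rank correlation = 0.810, exact permutation p = 0.0036 and 0.022, adjusted p of r = 0.027 and of the rank correlation = 0.136), with r = 0.784 without these libraries. The relations were looked for after the data had been seen, and the adjustment covered only these 50 relations, not all genes tested. Of all genes tested, 0.86% had an r with smooth muscle at least as high as that of Epha1. The share was 0.90% for Srgap3 and 6.24% for Efnb2.

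In the other direction, Efna1, Ephb4, Slit2 and Srgap2 had r below -0.7, at -0.821, -0.784, -0.738 and -0.729, and none of these passed the adjustment by r. By rank, Ephb4 did (Spearman rank correlation = -0.905, adjusted exact permutation p = 0.046). Slit2 was highest in Ntn1-/- D, the library with the lowest smooth muscle level, and lowest in WT A and D, both with levels above 0. Such relations were common in the table: r was above 0.7 for 5 of the 25 genes against 14.7% of all genes, and below -0.7 for 4 of 25 against 14.8%. The level of 9 macrophage markers ran opposite to that of smooth muscle (r = -0.912 between both levels), and against it Srgap3 (r = -0.949), Epha4 (r = -0.923), Efnb2 (r = -0.892) and Epha1 (r = -0.878) passed at adjusted p of 0.0041, 0.027, 0.027 and 0.011 by exact permutation. By rank, Epha4 (-0.595, adjusted exact permutation p = 0.276) and Efnb2 (-0.786, adjusted exact permutation p = 0.155) did not pass. Of all genes tested, 0.45% had an r with the macrophage level at least as low as that of Srgap3. The share was 1.43% for Epha4, 2.91% for Efnb2 and 3.69% for Epha1.

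With the smooth muscle level as a covariate, a fit added after seeing the data, the standard error of the log2 fold change was 0.11 for Epha1, against 0.35 without it, and 0.088 for Srgap3, against 0.25. The interval for Epha1 was then -0.26 to 0.26 and that for Srgap3 -0.18 to 0.22. Both genes had been singled out for their high r with this same level, so a smaller standard error follows from that choice. No gene of the 25 passed in that fit either, where Efna4 had an adjusted limma p of 0.134 and Epha5 one of 0.109.

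**Figure D5:**
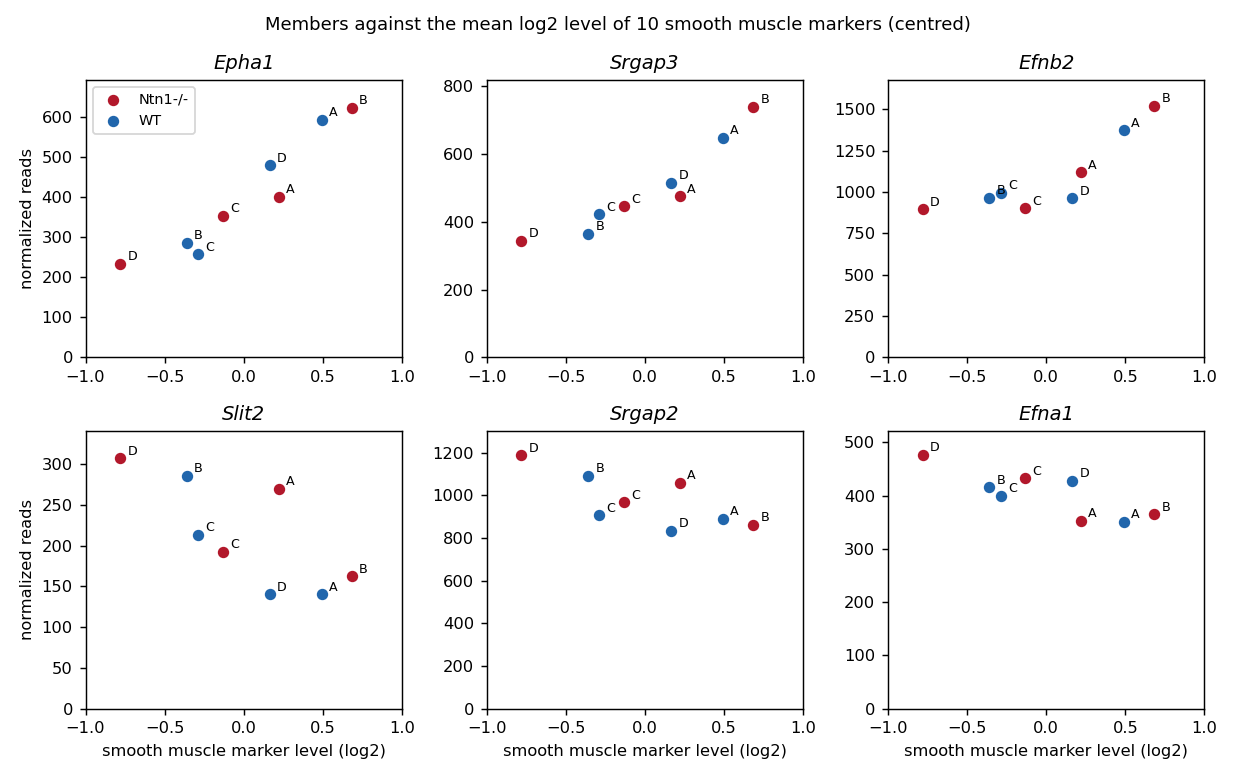
Normalized reads of 6 genes against the mean centred log2 level of 10 smooth muscle markers in each library (letters give the replicate), Ntn1-/- in red and WT in blue. Epha1, Srgap3 and Efnb2 climb with the smooth muscle level in both groups (r = 0.963, 0.962 and 0.858), while Slit2, Srgap2 and Efna1 decline.

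The promoters of Epha1 and Srgap3, the genes with the highest r against smooth muscle, are shown. They run from 250 bases before to 50 bases after the RefSeq start (GRCm38.p6). A relation between promoter sequence and level was not tested. The capitals mark E-boxes (CANNTG), a core sequence of basic helix-loop-helix factors.
Epha1, chr6:42373219-42373518, minus strand: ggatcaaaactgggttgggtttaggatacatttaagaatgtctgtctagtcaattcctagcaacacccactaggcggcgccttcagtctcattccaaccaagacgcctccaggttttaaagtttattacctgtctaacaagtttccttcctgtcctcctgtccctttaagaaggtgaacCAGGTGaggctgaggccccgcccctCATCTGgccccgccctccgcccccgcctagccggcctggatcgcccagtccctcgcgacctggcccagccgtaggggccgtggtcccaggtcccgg
Srgap3, chr6:112947217-112947516, minus strand: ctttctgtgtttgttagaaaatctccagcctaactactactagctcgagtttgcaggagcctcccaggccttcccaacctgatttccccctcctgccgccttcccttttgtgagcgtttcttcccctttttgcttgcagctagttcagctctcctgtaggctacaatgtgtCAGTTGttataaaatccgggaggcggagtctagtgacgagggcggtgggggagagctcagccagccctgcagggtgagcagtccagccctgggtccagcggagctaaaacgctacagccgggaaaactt
Epha1 held 2 E-boxes and Srgap3 held 1, which describes these windows only, since 72.3% of the 32851 promoters of this length in the RefSeq table held one. Both motifs searched, chosen after the data had been seen, read the same on either strand. The CArG box, the motif of serum response factor in many smooth muscle genes, had no match in either window and was present in 1.63% of all promoters. Of 29 genes of the 31 that matched the RefSeq table by symbol, Robo1 was the 1 gene with a CArG box, and 15 had an E-box. Counted per promoter, as the shares of all promoters were, 1 of their 34 promoters had a CArG box and 17 had an E-box.

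Adaptors and effectors of the same pathways were listed beside the ligands and receptors. Of 45 listed genes, 43 were tested, with 26 higher and 17 lower estimates and a median log2 fold change of 0.04. At an unadjusted p under 0.05, 7 were higher and 3 lower in Ntn1-/- chimeras (23.3% of 43, against 15.6% of all genes), and 6 had groups that did not overlap (14.0% of 43, against 10.5% of all genes). None passed limma, edgeR or DESeq2 after adjustment, and the smallest adjusted limma p was 0.253. The 4 with the smallest p are given here. Gpc1, a heparan sulfate proteoglycan that binds Slit, had 1053, 958, 840.0 and 1018 normalized reads in Ntn1-/- replicates A to D, against 1188, 1159, 1373 and 1071 in WT replicates A to D. All Ntn1-/- libraries lay below all WT libraries (log2 fold change -0.31, standard error 0.10). Yes1, a Src family kinase, averaged 236 ± 17.9 in Ntn1-/- chimeras and 183 ± 25.6 in WT chimeras (log2 fold change 0.37, standard error 0.12). Pak1, a kinase activated by Rac and Cdc42, averaged 268 ± 16.5 in Ntn1-/- chimeras and 226 ± 8.45 in WT chimeras (log2 fold change 0.24), and Pard6a, a polarity protein that binds ephrin-B1, averaged 179 ± 12.7 in Ntn1-/- chimeras and 224 ± 25.0 in WT chimeras (log2 fold change -0.32). These 3 genes and Gpc1 are among the 6 without overlap, the others being Chn1 and Rgs3. When length and GC content were corrected for, the log2 fold change was -0.1078 for Pard6a and 0.2102 for Yes1, and the unadjusted limma p was above 0.05 for both. Robo4, the Robo of endothelium, was at 688 ± 231 in Ntn1-/- chimeras and 669.6 ± 164 in WT chimeras.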

How the data were processed

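RNA of 8 aortas was sequenced as single-end reads of 50 nucleotides, aligned to mm9 with TopHat2 2.0.9 (2 mismatches allowed) and counted per gene with featureCounts, per the submitters' processing notes and the study's methods. The annotation and strand setting of the counting are not given in the sources used here. The signal values deposited by the authors are read counts divided by one DESeq2 size factor per library, and whole reads came back for 100% of 187360 values (tolerance 0.001). In Ntn1-/- replicate C, 1 read was worth 0.996 normalized reads, so near 1 that an automatic check of whole reads was not made on it. The deposited table also holds the authors' fold changes and p-values, and 2 further tables hold their pathway and gene results, none of which were used.

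Log2(value + 1) was tested with limma 3.58.1 (eBayes with trend, R 4.3.3) over the genes that averaged 10 or more normalized reads, with Benjamini-Hochberg adjustment and a threshold of 0.05. Fold changes on this scale understate the change of low genes. edgeR 4.0.16 and DESeq2 1.42.0 on recovered reads were alternatives, beside other pseudocounts (0.5 and 5), no filter, other scalings, voom, the replicate letter as a block, a length and GC offset, and leaving out libraries. No pair of libraries was a duplicate (chi-square per degree of freedom 9.2 to 166 over 28 pairs). Lengths came from GENCODE M1 on mm9 for 94.7% of the 14931 genes tested, and the limma step was tested on simulated data. Values are given library by library for genes at an unadjusted p under 0.05, those whose groups do not overlap and the most abundant of each role, and up to 4 other pathway genes with the smallest p are named. Other genes were added after their values were seen. The genes and lists were chosen with earlier results of these data known. Animals were separate, so replicates are biological.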

Additional observations from a re-analysis of the deposited data

Results flagged for a closer look

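Dixon's criterion was applied to 30 genes: the 25 tested genes, Ntn1 and the 4 other pathway genes with the smallest p. In their 60 groups of 4 libraries (2 groups each), 5 held a library far from the other three. Chance alone marks about 1 in 20 groups, or 3.0 here. Efna3 was at 53.2 normalized reads in Ntn1-/- replicate A, against 28.6 to 32.3 in the other three Ntn1-/- libraries. Efnb3 was at 17.5 in the same library, against 29.9 to 31.4. Epha4 was at 180.7 in Ntn1-/- replicate B, against 81.4 to 89.7. Efnb2 was at 1372 in WT replicate A, against 961.6 to 994.4 in the other three WT libraries. Epha5 was at 1.17 in WT replicate C, which is 1 read, against 4.61 to 4.71.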

How the results depend on the processing

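Under 22 alternatives, none of the 25 genes had an adjusted p under 0.05, and of their 550 estimates 499 kept their direction and 51 reversed, in 14 genes. DESeq2 called 495 genes of the whole table and the smooth muscle covariate 1, against 0 in limma. Genes of these families at an unadjusted p under 0.05 numbered 1 without a filter, in edgeR with either scaling, in DESeq2, in voom, with library totals or upper-quartile scaling (Epha5 in each) and with the length and GC offset with block (Ephb2), 0 without Ntn1-/- B and C, and 0 to 3 when one library was left out (0 without Ntn1-/- B or WT C). Genes whose groups did not overlap numbered 1 with library totals and with the offset, and 2 to 4 when one library was left out (4 without Ntn1-/- A, where Efna3 and Ephb2 joined). Their median log2 fold change was 0.0951 with library totals, which moved the median of all genes to 0.058, -0.063 without Ntn1-/- B and C, and -0.029 to 0.1386 when one library was left out. The length and GC offset left 10 of 25 with a higher estimate, and Epha5 and Ephb2 then had an unadjusted p under 0.05.

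Between same-lettered replicates, deviations from the group mean had correlations from -0.304 to 0.151 over 4 letters. Libraries with unlike letters were not compared, so this check cannot exclude a pairing by letter. With the letter as a replicate block, 1 of the 25 genes had an unadjusted p under 0.05 and 0 genes were called.

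For the genes chosen by the naming rule, Epha1 was at 0.0065 in voom, 0.0686 with library totals, 0.0062 with upper-quartile scaling, 0.0486 with the offset (with and without the block), 0.0001 with the covariate and -0.2426 to 0.2265 when one library was left out. Efnb2 was at -0.0277 with the offset (with and without the block), -0.0837 without Ntn1-/- B and C and -0.1346 to 0.1528 when one was left out. Srgap2 was at -0.0293 and Ntn1 at -0.0215 with the offset (with and without the block), and Ephb4 at 0.0232 with library totals. Ntn1 was at -0.0544 without Ntn1-/- B and C and -0.1013 to 0.2171 when one was left out, and Slit3 at -0.1147 to 0.2049. The causes were not tested. Epha5 and the 6 genes not tested had few or no reads in most libraries, which limits what can be said about them.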
